A study of Homo sapiens with 5 samples.

Results

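The genes of cholesterol and fatty acid synthesis were followed in MCF10A cells in which the transcription factor JUN was raised from its own promoter. The group comprised 30 genes of the 23459 in the count table, found by their Entrez identifiers. It held 18 enzymes of sterol synthesis, 4 regulators of the pathway, the sterol transport protein gene STARD4, 4 enzymes of fatty acid synthesis and 3 desaturases. The rule is a list of names that uses no measured value, but the list was drawn up with earlier results of these data known.

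MCF10A is an immortalised, non-tumorigenic human mammary epithelial line. All libraries came from MCF10A SAM cells, which are picked single clones carrying dCas9-VP64 and MCP-p65-HSF1, the parts of an activator complex that a guide RNA brings to a promoter. The control cells (NTC, 3 libraries) carried a non-targeting guide, and the JUN cells (sgJUN#1, 2 libraries) carried 1 guide against the JUN promoter, so guide and JUN level cannot be told apart. The cells were kept in medium with horse serum, insulin, hydrocortisone, cholera toxin and EGF, and 3′ mRNA sequencing (QuantSeq) then gave 1 read count per gene and library.

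Cells make cholesterol from acetyl-CoA through mevalonate, farnesyl diphosphate, squalene and lanosterol, and make fatty acids from the same acetyl-CoA through malonyl-CoA. Both routes are set largely at the level of transcription by the sterol regulatory element-binding proteins (SREBPs, encoded by SREBF1 and SREBF2). SCAP escorts the SREBP precursors from the endoplasmic reticulum to the Golgi for cleavage, and INSIG proteins hold them back when sterols are plentiful. Many genes of the pathway are SREBP targets and tend to move together when cellular sterol falls or rises.

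None of the 30 genes passed the test. FADS2, a fatty acid desaturase at 0.461 of its control level, and FDFT1, the squalene synthase at 0.662, were the 2 genes with an unadjusted p-value under 0.05, a measure met by 8.38% of all tested genes. The log2 fold change was below 0 for 24 of the 30 genes, compared with 51.0% of all tested genes. Its median was -0.21, and it was -0.12 without NTC replicate 1, which was the highest control library for 17 of the 30 genes, compared with 31.2% of all tested genes.

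As examples of the regulatory sequences of these genes, stretches of 120 bases upstream of an annotated start are printed for 7 genes. They are the regulators SREBF2 and INSIG1, the early enzymes HMGCS1 and MVD, the late enzymes HSD17B7 and EBP, and FADS2, the gene with the largest difference between the groups. The sequences are RefSeq sequences on build GRCh38.p14, 5′ to 3′ in the direction of transcription. Capitals mark every match, on either strand, to the motifs described after the sequences. Each stretch was picked for its matches to these motifs, so the density of capitals should not be read as typical of the promoters. HMGCS1 and FADS2 had 2 promoters each, of which 1 is shown.
SREBF2: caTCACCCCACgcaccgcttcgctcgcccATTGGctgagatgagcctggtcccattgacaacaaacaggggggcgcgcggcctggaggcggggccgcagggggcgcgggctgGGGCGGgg
INSIG1: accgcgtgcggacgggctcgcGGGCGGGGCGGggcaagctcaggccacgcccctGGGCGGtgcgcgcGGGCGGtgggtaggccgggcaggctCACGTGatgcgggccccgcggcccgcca
HMGCS1: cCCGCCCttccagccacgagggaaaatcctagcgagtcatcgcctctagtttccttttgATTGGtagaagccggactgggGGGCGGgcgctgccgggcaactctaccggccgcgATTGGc
MVD: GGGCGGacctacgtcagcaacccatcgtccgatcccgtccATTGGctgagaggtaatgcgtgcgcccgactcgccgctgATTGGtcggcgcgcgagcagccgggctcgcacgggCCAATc
HSD17B7: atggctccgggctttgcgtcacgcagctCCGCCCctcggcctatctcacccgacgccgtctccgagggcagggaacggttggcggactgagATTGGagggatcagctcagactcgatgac
EBP: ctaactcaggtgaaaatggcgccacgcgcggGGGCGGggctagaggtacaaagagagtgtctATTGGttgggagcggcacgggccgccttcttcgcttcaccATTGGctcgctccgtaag
FADS2: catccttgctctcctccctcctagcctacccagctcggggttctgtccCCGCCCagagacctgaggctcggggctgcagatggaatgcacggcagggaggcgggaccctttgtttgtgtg
The stretches lie at chr22:41832970-41833089 on the plus strand for SREBF2, chr7:155297731-155297850 on the plus strand for INSIG1, chr5:43313507-43313626 on the minus strand for HMGCS1, chr16:88663171-88663290 on the minus strand for MVD, chr1:162790559-162790678 on the plus strand for HSD17B7, chrX:48521676-48521795 on the plus strand for EBP and chr11:61816202-61816321 on the plus strand for FADS2. In this order they begin 135, 147, 214, 199, 143, 132 and 202 bases before the annotated start of transcription of the promoter shown.

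Of the 30 genes, 26 had an entry in the RefSeq promoter table, with 35 promoters in all, each covering 250 bases before to 50 bases after the start. ACAT2, FDFT1, SQLE and FASN had none. The SREBP site of classical promoters was searched as TCACNCCAC, the box of its partner NF-Y as CCAAT, that of its partner Sp1 as GGGCGG, the E-box as CACGTG, the AP-1 site bound by JUN as TGANTCA and the related CRE site as TGACGTCA, each on both strands. No pattern contains another, although CACGTG and TGACGTCA share the letters ACGT, and neighbouring copies of GGGCGG may overlap.

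CCAAT was in the promoters of 20 of the 26 genes (76.9%), compared with 39.7% of all 27305 genes in the table and 43.5% of those that were tested for expression here. GGGCGG was in 25 of 26 (96.2%), compared with 48.3% and 74.7%. The SREBP pattern was found in SREBF2 alone, near the 5′ end of the stretch printed above, and in 1.39% of all genes and 1.53% of the tested ones. CACGTG was in 4 genes (15.4%, compared with 8.77% of all genes and 12.4% of the tested ones), INSIG1, LSS, SC5D and SCAP, and the INSIG1 copy is the last run of capitals in its stretch. TGANTCA was in none of the 26, where 9.37% of all genes and 7.26% of the tested ones held it, and TGACGTCA was in 1 (3.85%, compared with 2.25% and 3.70%), FADS1. These are letter matches to fixed patterns in a short window and were not tested against the expression values. Sites with other letters, or farther from the start, were not searched, so a gene without a match may still hold a site.

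The targeted gene was examined before the pathway. JUN held 91, 89 and 42 counts in NTC replicates 1 to 3 and 831 and 742 counts in sgJUN#1 replicates 1 and 2, so the groups did not overlap. As CPM, counts scaled to library sizes normalised by the TMM method, this was 25.0, 36.2 and 9.32 against 171.5 and 265.5. This was a log2 fold change of 3.25 (SE 0.484), for which edgeR's quasi-likelihood test returned 0.0733 as the Benjamini-Hochberg adjusted p-value. The call on JUN changed with the method: its adjusted p-value was 7.36e-12 with DESeq2, 0.0342 with limma-voom and, in edgeR, 0.00121 without NTC replicate 3, 0.0144 without NTC replicate 2, 1.15e-04 with the replicate number as a block, 0.279 without NTC replicate 1 and 0.218 with no filter. Library totals were between 2455627 and 4988062 counts, and a floor of 3 counts, the limit that a count of 0 allows, was between 0.601 and 1.22 CPM. NTC replicate 3 stood farthest from the other controls: the chi-square of the counts, per degree of freedom, reached 18.4 against replicate 1 and 13.7 against replicate 2, where replicates 1 and 2 gave 7.75 and the sgJUN#1 pair 7.62. Its values are therefore shown apart.

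The epithelial label was checked against marker genes. All 9 basal epithelial markers were above the expression filter, with a summed level of 1242 to 2216 CPM in NTC and 1184 to 2730 CPM in sgJUN#1. Some were low: KRT14 reached at most 3.26 CPM, TP63 at most 7.51 CPM, and KRT17 had 0 counts in NTC replicate 1. The luminal hormone receptor genes ESR1 (3.30 to 8.05 CPM) and PGR (1.03 to 4.07 CPM) were also above the filter. The hepatocyte markers ALB, APOB and TTR summed to at most 0.665 CPM. Of the adipocyte markers, ADIPOQ, PLIN1 and LEP reached at most 1.43 CPM, while CIDEC, a lipid droplet protein gene, was at 160.1 to 177.5 CPM in the 5 libraries, with overlapping groups. Leukocyte markers summed to 5.32 to 8.55 CPM in NTC and 11.4 to 17.5 CPM in sgJUN#1, with CD68 the largest part, and endothelial markers to at most 11.0 CPM.

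**Figure D1:**
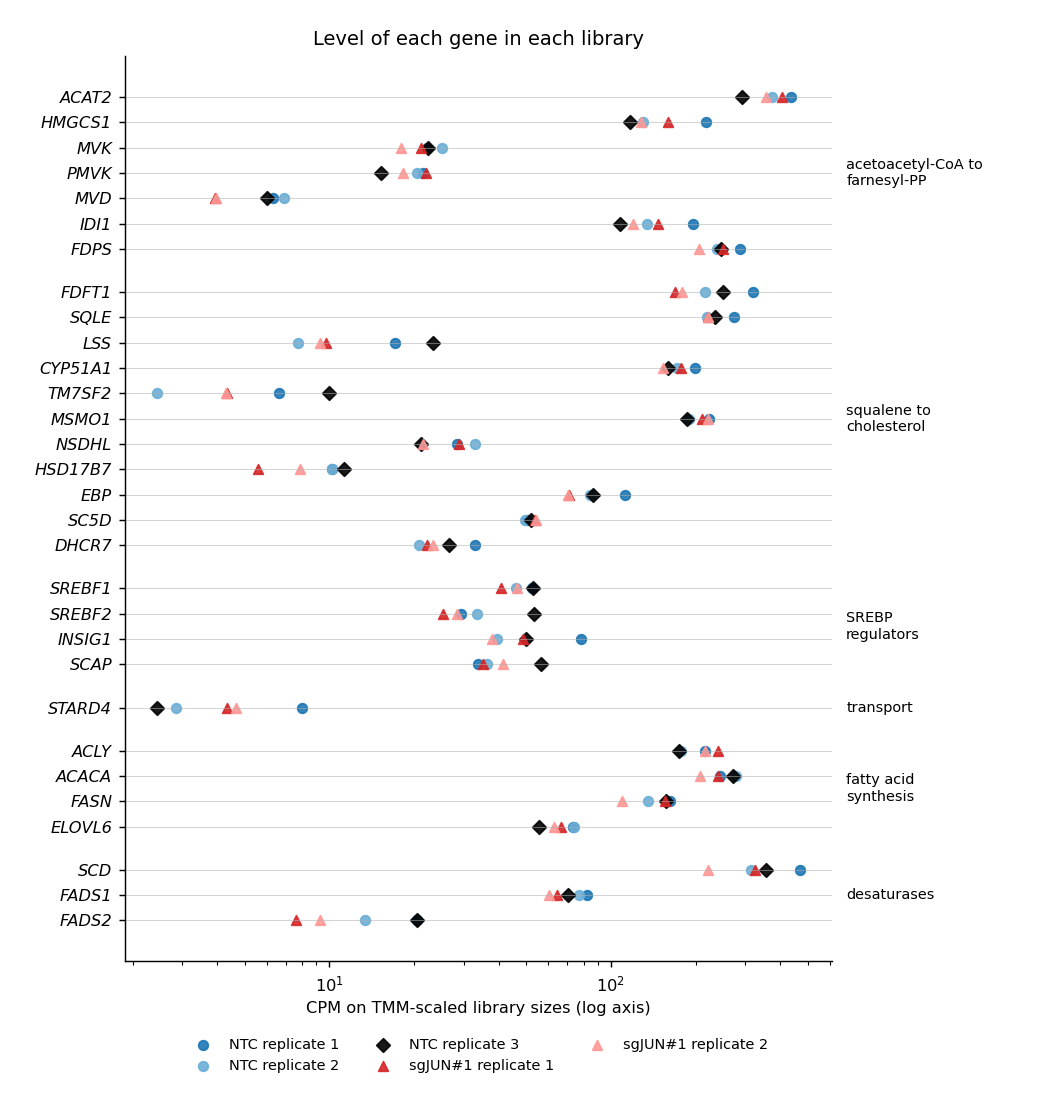
The level of each of the 30 genes in each library, in CPM on a log axis, grouped by role, with NTC replicates 1 and 2 as circles, NTC replicate 3 as black diamonds and the sgJUN#1 libraries as triangles. Both triangles lie to the left of all NTC points for 9 genes (12.8% of all tested genes), among them FADS2 and FDFT1. They lie to the right for 1 (12.2% of all tested genes), SC5D.

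All 30 genes passed the filter on low counts. With edgeR, 0 of them had an adjusted p-value under 0.05, where 0.206% of all 13616 tested genes did, and their adjusted p-values ran from 0.300 to 0.998. DESeq2 called 0 of the 30 (0.975% of all its genes), limma-voom 0 (0.147%) and edgeR without NTC replicate 3 also 0 (0.439%). An unadjusted edgeR p-value under 0.05 was found for 2 of 30, FADS2 and FDFT1, compared with 8.38% of all tested genes. Both were lower in sgJUN#1, and 4.36% of all tested genes met this measure in that direction. By the same measure DESeq2 gave these 2, compared with 4.52% of its 19587 genes and 846 of the 13616 genes tested in edgeR. With limma-voom there were 3, HSD17B7 being added (8.42%), and edgeR without NTC replicate 3 gave 3 with EBP added (8.12%). In bulk RNA, less of a transcript per cell and fewer cells that carry it cannot be told apart.

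The log2 fold change was below 0 for 24 of the 30 genes, compared with 51.0% of all tested genes, and its median was -0.21, compared with -0.0082. It ran from -1.12 for FADS2 to 0.26 for ACLY. The unadjusted 95% interval excluded 0 for 2 genes, compared with 1141 of the 13616 tested genes. It lay wholly within 1 log2 unit, a doubling or halving, for 20 of the 30 genes and for 8091 of the 13616. For the rest of the 30 genes the interval reached past 1 log2 unit.

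In levels, both sgJUN#1 libraries lay below all 3 NTC libraries for 9 genes (12.8% of all tested genes did so), which were MVK, MVD, FDFT1, HSD17B7, EBP, SREBF2, ACACA, FADS1 and FADS2. They lay above for 1 gene (12.2% of all tested genes), SC5D. Without NTC replicate 3 the counts were 10 lower and 1 higher, against 18.3% and 18.8% of all genes. At the median, the spread within the controls was larger than the differences, though a range and a difference of means are unlike measures. The median range of the 3 NTC libraries was 0.44 log2 CPM over the 30 genes and 0.56 over all tested genes. The median absolute difference between the group means was 0.21 and 0.22. The group difference exceeded the NTC range for 9 of the 30 genes and for 18.0% of all tested genes.

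**Figure D2:**
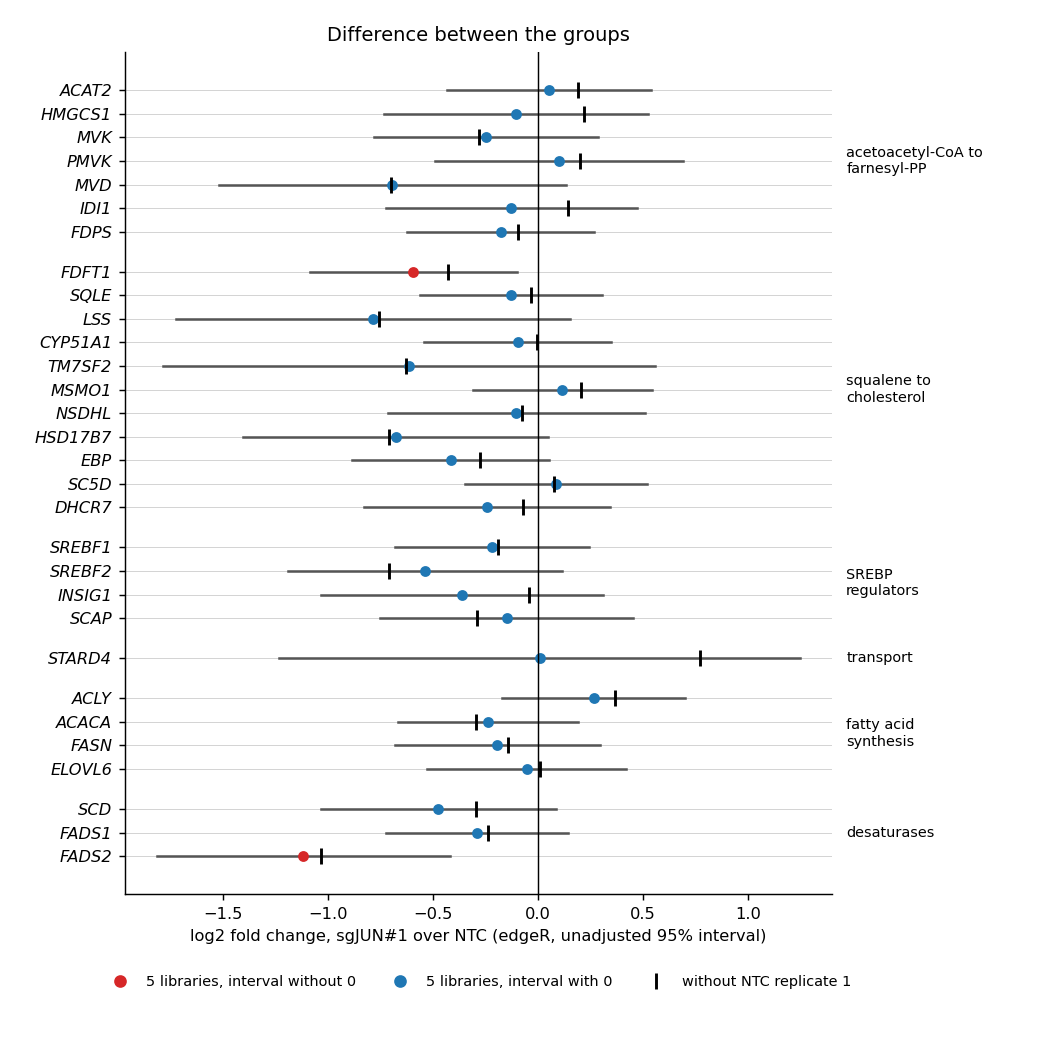
The log2 fold change of sgJUN#1 over NTC for each of the 30 genes, with unadjusted 95% intervals from edgeR. Red points mark the 2 genes whose interval excludes 0, FDFT1 and FADS2, compared with 1141 of the 13616 tested genes. Black ticks show the value without NTC replicate 1, which for HMGCS1 lies on the other side of 0.

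The 7 enzymes from acetyl-CoA to farnesyl diphosphate did not pass the test in either direction. HMGCS1 makes HMG-CoA, the precursor of mevalonate, and is a classical SREBP target. Its level was 217.0, 130.2 and 117.3 CPM in NTC replicates 1 to 3 and 160.0 and 127.7 CPM in sgJUN#1. The sgJUN#1 libraries lay inside the range of the controls, of which only replicate 1 stood high. Its log2 fold change of -0.11 (SE 0.281) had a 95% interval of -0.74 to 0.53 and an adjusted p-value in edgeR of 0.956. Without NTC replicate 1 it was 0.22, on the other side of 0.

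IDI1, the isopentenyl diphosphate isomerase, whose count is uncertain because an antisense gene overlaps it, followed the same order over the libraries as HMGCS1, with 196.4, 133.9 and 108.0 CPM in NTC and 146.7 and 120.2 CPM in sgJUN#1. MVD, the mevalonate diphosphate decarboxylase, was low but separated, at 6.33, 6.92 and 5.99 CPM in NTC and 3.92 and 3.94 CPM in sgJUN#1. Its counts were few, between 11 and 27 per library, and its log2 fold change of -0.69 had an interval of -1.52 to 0.13. MVK, the mevalonate kinase, had 22.3, 25.2 and 22.4 CPM in NTC and 21.1 and 17.9 CPM in sgJUN#1, the second gene of this stage without overlap. ACAT2, PMVK and FDPS, the thiolase, the second kinase and the farnesyl diphosphate synthase, had log2 fold changes of 0.054, 0.098 and -0.18 and overlapping groups.

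FDFT1 commits farnesyl diphosphate to sterols by making squalene. It reached 319.9, 216.1 and 250.6 CPM in NTC (262.2 ± 52.8, SD, n = 3) and 168.4 and 179.3 CPM in sgJUN#1 (173.8 ± 7.66, SD, n = 2). Both sgJUN#1 libraries were under the lowest control. The difference was -0.59 on the log2 scale (SE 0.220, 95% interval -1.09 to -0.099), with an unadjusted edgeR p-value of 0.0235 and an adjusted p-value of 0.498. It was -0.43 without NTC replicate 1, where the unadjusted p-value was 0.0562, and -0.63 without NTC replicate 3.

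SQLE, the squalene epoxidase and a slow step of the pathway, did not follow FDFT1. It had 274.2, 219.4 and 233.8 CPM in NTC and 221.5 and 222.2 CPM in sgJUN#1, which both fell just above the lowest control. On the log2 scale the change was -0.13 (SE 0.193, 95% interval -0.56 to 0.30), an interval narrower than a doubling in either direction, and edgeR gave an adjusted p-value of 0.904. Whether the changes of FDFT1 and SQLE differed from each other was not tested.

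Of the later enzymes, HSD17B7 and EBP had the smallest p-values after FDFT1. HSD17B7, a ketoreductase that acts in removal of methyl groups from the sterol ring, stood at 10.2, 10.2 and 11.3 CPM in NTC (10.6 ± 0.656, SD, n = 3) and 5.57 and 7.87 CPM in sgJUN#1 (6.72 ± 1.63, SD, n = 2). The controls were close together and both sgJUN#1 libraries lay under them. This gave a log2 fold change of -0.68 (SE 0.323, 95% interval -1.41 to 0.046) and, in edgeR, an adjusted p-value of 0.626. Counts were 22 to 51 per library, and HSD17B7P2, a pseudogene of near-identical sequence, held 15, 15 and 24 counts in NTC and 22 and 5 in sgJUN#1, so reads could be split between the 2 copies.

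EBP, the sterol isomerase, had 111.9, 84.3 and 86.7 CPM in NTC and 71.0 and 70.5 CPM in sgJUN#1. NTC replicates 2 and 3 were close to each other and replicate 1 was well above them. EBP differed by -0.42 on the log2 scale (SE 0.209, 95% interval -0.89 to 0.054, adjusted p-value 0.654 in edgeR), and by -0.28 without NTC replicate 1. SC5D, the sterol desaturase, was the gene whose sgJUN#1 libraries lay above the controls, at 53.7 and 54.0 CPM against 50.3, 49.7 and 52.1 CPM, a log2 fold change of 0.086 (95% interval -0.35 to 0.52).

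LSS, the lanosterol synthase, and TM7SF2, a sterol reductase, were the most uneven of the enzymes within the controls. LSS had 17.1, 7.73 and 23.3 CPM in NTC and 9.70 and 9.30 CPM in sgJUN#1, and TM7SF2 had 6.60, 2.44 and 9.98 CPM and 4.33 and 4.29 CPM. The highest control exceeded the lowest 3.01-fold for LSS and 4.09-fold for TM7SF2, with NTC replicate 3 the highest in both. Their log2 fold changes were -0.79 and -0.62, with intervals that reached beyond 0. CYP51A1, MSMO1, NSDHL and DHCR7, which carry out demethylation of lanosterol and the final reduction, had log2 fold changes between -0.24 and 0.12 and overlapping groups.

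**Figure D3:**
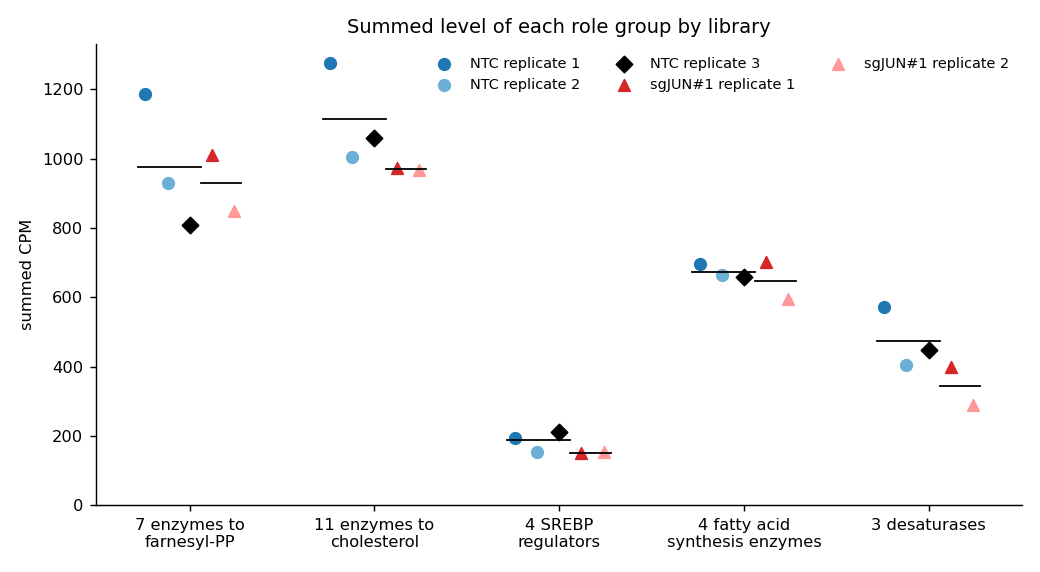
The summed level, in CPM, of the genes of each role group by library, with horizontal lines at the group means. NTC replicate 1 is the highest of the 5 libraries for both sets of sterol enzymes and for the desaturases, and the sgJUN#1 libraries lie below all NTC libraries for the 11 later sterol enzymes, the regulators and the desaturases.

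Summed over the 7 early enzymes, NTC libraries held 1187, 930.4 and 808.9 CPM and sgJUN#1 libraries 1011 and 850.1 CPM, and the sgJUN#1 mean was -4.64% from the NTC mean. Without NTC replicate 1 the sign turned, to 6.97%. The 11 later enzymes summed to 1275, 1006 and 1061 CPM in NTC and 974.8 and 966.7 CPM in sgJUN#1, a change of -12.8% that became -6.06% without NTC replicate 1. Over all 18 sterol enzymes the change of -9.01% became -0.106%. A sum is led by the genes with the most counts, so these values describe mainly ACAT2, HMGCS1, IDI1, FDPS, FDFT1, SQLE, CYP51A1 and MSMO1.

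The 4 regulators were all below 0 in log2 fold change, by -0.15 to -0.54, and none passed the test. SREBF2, which encodes the SREBP that mainly drives cholesterol synthesis, had 29.4, 33.4 and 53.2 CPM in NTC and 25.4 and 28.3 CPM in sgJUN#1. NTC replicate 3 stood far above the other controls, and NTC replicate 1 was close to the higher sgJUN#1 library. Its difference of -0.54 on the log2 scale (SE 0.291, 95% interval -1.19 to 0.11, adjusted p-value 0.672 in edgeR) became -0.23 without NTC replicate 3 and -0.71 without NTC replicate 1. SREBF1, which encodes the SREBPs that mainly drive fatty acid synthesis, had 52.5, 46.0 and 53.0 CPM in NTC and 40.7 and 46.5 CPM in sgJUN#1. The upper sgJUN#1 library was above NTC replicate 2 by a small margin. SREBF1 had a log2 fold change of -0.22 (SE 0.206, 95% interval -0.68 to 0.24, adjusted p-value 0.818 in edgeR).

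INSIG1, both an SREBP target and a brake on SREBP transport, had 78.4, 39.5 and 49.9 CPM in NTC and 48.9 and 37.9 CPM in sgJUN#1. NTC replicate 1 was the only library above 50 CPM. Its log2 fold change of -0.36 (SE 0.299, 95% interval -1.04 to 0.31, adjusted p-value 0.789 in edgeR) was -0.044 without that library. SCAP, the escort protein, had 33.8, 36.2 and 56.3 CPM in NTC and 35.1 and 41.5 CPM in sgJUN#1, with NTC replicate 3 again apart. STARD4, a cytosolic carrier of cholesterol, held only 7 to 29 counts per library and its controls differed 3.27-fold, so its log2 fold change of 0.007 had an interval of -1.23 to 1.25.

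The 4 fatty acid synthesis enzymes did not pass the test either. ACLY, which makes cytosolic acetyl-CoA from citrate for both routes, had the highest log2 fold change of the 30 genes. It stood at 216.5, 177.9 and 174.8 CPM in NTC and 239.6 and 215.7 CPM in sgJUN#1, and the lower sgJUN#1 library fell just under NTC replicate 1. ACLY thus differed by 0.26 on the log2 scale (SE 0.195, 95% interval -0.17 to 0.70, adjusted p-value 0.767 in edgeR). FASN, the fatty acid synthase, had 162.8, 135.1 and 157.5 CPM in NTC and 155.4 and 109.5 CPM in sgJUN#1. One sgJUN#1 library lay among the controls and the other below them, and the log2 fold change was -0.20 (SE 0.218, 95% interval -0.68 to 0.29, adjusted p-value 0.860 in edgeR).

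ACACA, which makes malonyl-CoA, had 243.4, 278.4 and 270.6 CPM in NTC and 240.9 and 206.8 CPM in sgJUN#1, below the controls but by only a small margin for the higher library. ELOVL6, which lengthens palmitate, had a log2 fold change of -0.055 and overlapping groups. In sum the 4 enzymes were at 696.2, 665.1 and 658.3 CPM in NTC and 702.6 and 595.0 CPM in sgJUN#1, a change of -3.62%.

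The 3 desaturases put double bonds into fatty acids, and all had log2 fold changes below 0. FADS2, which catalyses the entry step to long polyunsaturated fatty acids (GRCh37, chromosome 11, 61560452 to 61634826, plus strand), had 74, 33 and 92 counts in NTC and 37 and 26 in sgJUN#1. This corresponded to 20.4, 13.4 and 20.4 CPM (18.1 ± 4.01, SD, n = 3) and 7.64 and 9.30 CPM (8.47 ± 1.18, SD, n = 2). Every control lay above both sgJUN#1 libraries, and the nearest was NTC replicate 2. This was the lowest log2 fold change of the 30 genes, -1.12 (SE 0.311, 95% interval -1.82 to -0.42). The unadjusted edgeR p-value was 0.00525 and the adjusted p-value 0.300, above the threshold. Leaving out NTC replicate 1 or NTC replicate 3 gave -1.03 in each case.

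FADS1, the other polyunsaturated fatty acid desaturase and the neighbour of FADS2 on the opposite strand, had 82.0, 76.9 and 70.3 CPM in NTC and 64.6 and 60.1 CPM in sgJUN#1. The groups did not overlap, and the log2 fold change was -0.29 (SE 0.194, 95% interval -0.73 to 0.14, adjusted p-value 0.744 in edgeR). SCD, which makes oleate from stearate, had 469.5, 315.8 and 356.2 CPM in NTC and 326.1 and 220.8 CPM in sgJUN#1. Its groups overlapped, since the higher sgJUN#1 library was above NTC replicate 2. SCD differed by -0.48 on the log2 scale (SE 0.249, 95% interval -1.03 to 0.083, adjusted p-value 0.664 in edgeR), and by -0.30 without NTC replicate 1. The summed level of the 3 desaturases, most of it SCD, was 571.8, 406.2 and 447.0 CPM in NTC and 398.3 and 290.2 CPM in sgJUN#1, a change of -27.5%, or -19.3% without NTC replicate 1.

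The controls did not rank evenly for these genes. NTC replicate 1 was the highest of the 3 for 17 of 30 genes, compared with 31.2% of all tested genes, and NTC replicate 2 was the lowest for 14, compared with 29.5%. Leaving out NTC replicate 1 reduced the genes below 0 in log2 fold change from 24 to 21 (51.1% of all genes) and moved the median from -0.21 to -0.12. The sign turned for HMGCS1, IDI1 (0.14) and ELOVL6 (0.011), and the value of STARD4 moved to 0.77. In that setting both sgJUN#1 libraries were below both controls for 9 genes (22.1% of all) and above for 4 (20.5%). Within sgJUN#1, replicate 2 was below replicate 1 for 18 of 30 genes, compared with 49.6% of all tested genes. What set the level of NTC replicate 1 was not tested.

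NTC replicate 3, set against the mean of the other controls in log2 CPM, was higher for 11 genes and lower for 19, with a median of -0.10, while 53.1% of all tested genes were higher and their median was 0.036. The direction differed between the steps. All 7 early enzymes were lower, with a median of -0.44, among them IDI1 at -0.58, HMGCS1 at -0.52, ACAT2 at -0.46 and PMVK at -0.44. NSDHL at -0.53 and STARD4 at -0.85 were also low. Of the regulators 3 of 4 were higher, SREBF2 by 0.75, SCAP by 0.68 and SREBF1 by 0.11, and TM7SF2 and LSS were higher by 1.19 and 0.98. With the 1 library there is no error for these values, and they were not tested. SREBF2 and the early enzymes thus stood in opposite directions in this library. Leaving it out turned the sign of the log2 fold change for ACAT2 (-0.086), PMVK (-0.043), STARD4 (-0.34) and SCAP (0.13), and brought LSS to -0.42 and TM7SF2 to -0.14.

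Other genes of lipid metabolism were counted from lists of 82 genes covering the remaining sterol synthesis, SREBP control, uptake and traffic, export, ester storage, fatty acid supply, elongation and desaturation, activation and oxidation. Of the 76 that were tested, 0 passed the edgeR threshold in either direction, and 0 did so with DESeq2, with limma-voom or without NTC replicate 3. With an unadjusted p-value under 0.05, where 8.38% of all tested genes stood, 2 were higher, SPRING1 (log2 fold change 0.73) and PAQR3 (0.64), which both act on SREBP transport, and 3 lower, NPC2, ABCG1 and ELOVL5 (-0.75). Over the lists, 49 of 76 genes (64.5%, compared with 51.0% of all tested genes) were below 0 in log2 fold change, with a median of -0.12. Both sgJUN#1 libraries lay below all controls for 9 of the 76 (12.8% of all tested genes) and above them for 5 (12.2%). Genes below 0 in log2 fold change were 7 of 11 for remaining sterol synthesis and 5 of 11 for SREBP control. They were 5 of 7 for export, 1 of 5 for ester storage and 5 of 5 for fatty acid supply. For elongation and desaturation they were 7 of 11, for activation 4 of 7 and for oxidation 5 of 9. The 10 genes of sterol uptake and traffic were all below 0, with a median of -0.32. This list held 5 of the 9 genes whose sgJUN#1 libraries both lay below all controls.

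The lowest adjusted p-value of these lists belonged to NPC2, which binds cholesterol in the lysosome. This gene and the other 4 just given were named after their values were seen. It had 212.9, 148.2 and 156.2 CPM in NTC and 101.1 and 86.2 CPM in sgJUN#1, so the groups were well apart. The log2 fold change of NPC2 was -0.88 (SE 0.228), and its adjusted p-value in edgeR was 0.266 with all libraries and 0.131 when NTC replicate 3 was left out. ABCG1, a sterol exporter, had 6.88, 13.4 and 20.0 CPM in NTC and 3.72 and 4.29 CPM in sgJUN#1. ABCG1 had a log2 fold change of -1.76 (SE 0.483; adjusted p-value 0.294 in edgeR), and its controls differed widely, with NTC replicate 3 highest. With no filter on low counts its adjusted p-value was 0.0445, past the threshold.

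Some of the genes overlap their neighbours. In the GENCODE annotation on GRCh37, exons of 10 of the 30 genes overlap exons of another gene in the count table, and the use of strand in counting was not given in the sources used here. TCP1, a chaperonin subunit gene that overlaps ACAT2 tail to tail by 454 bases on the opposite strand, held 109.2% to 123.8% of the ACAT2 count in every library. RUSC1-AS1, antisense to FDPS over 693 bases, held 91.7% to 93.8% of the FDPS count, and IDI2-AS1, antisense to IDI1 over 643 bases, held 91.4% to 97.6% of the IDI1 count. For these 3 pairs the counts moved together over the libraries, and, without knowledge of the strand setting, reads from the 2 genes of a pair cannot be told apart. The values given for ACAT2, FDPS and IDI1 are therefore uncertain.

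**Figure D4:**
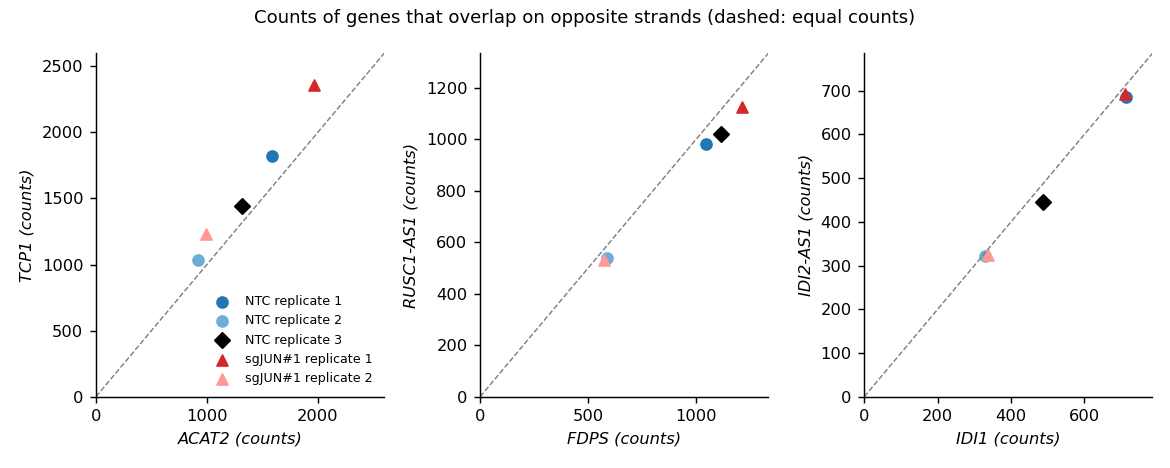
Counts of 3 of the genes (x axis) and of the gene overlapping each on the opposite strand (y axis) in the 5 libraries, with dashed lines at equal counts. TCP1 lies above the line against ACAT2 in all libraries, and RUSC1-AS1 and IDI2-AS1 lie just under it against FDPS and IDI1.

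FADS1 and FADS2 overlap over 490 bases on opposite strands, and FADS2 and FEN1 over 49 bases on the same strand. FADS1 held 298, 189 and 317 counts in NTC and 313 and 168 in sgJUN#1, and FEN1, a DNA replication nuclease gene, held 307, 245 and 133 in NTC and 716 and 189 in sgJUN#1. Relative to FADS2 this was 344.6% to 845.9% for FADS1 and 144.6% to 1935.1% for FEN1, so neither neighbour kept a fixed ratio to FADS2 over the libraries. SREBF1 with RAI1, MVK with MMAB, CYP51A1 with AKAP9, STARD4 with STARD4-AS1, TM7SF2 with VPS51, ACAT2 with SOD2 and SOD2-OT1, and FADS1 with MIR1908 are the other overlapping pairs.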

How the data were processed

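RNA was measured in 5 libraries, 3 NTC and 2 sgJUN#1, grouped by their titles. The study calls its RNA-sequencing replicates biological. Neither it nor the labels say how these libraries were separated (cultures, infections or clones), so p-values measure the spread between these libraries. The authors deposited raw read counts per gene, not normalised. The submitters' processing notes name cutadapt 4.2, Bowtie2 2.3.5.1 and the build hg19. The annotation, the use of strand, the treatment of multi-mapped reads and whether molecular identifiers were counted are not given in the sources used here, and depth limits cover counting error only.

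The counts were tested by quasi-likelihood in edgeR 4.0.16 (R 4.3.3) with TMM normalisation, filterByExpr, robust estimation and group as the only term. Benjamini-Hochberg adjustment ran over the 13616 tested genes, of 23459 in the table, with a threshold of 0.05. The SE is the log2 fold change over the square root of F, and intervals are 95% and unadjusted. CPM used TMM-scaled library sizes, and log2 CPM a prior count of 2. The scripts were tested on simulated data. DESeq2 1.42.0, limma-voom (limma 3.58.1), other scalings, no filter, a replicate block and the removal of each library were the alternatives. The block left NTC replicate 3 without a partner, so its difference between the groups came from replicates 1 and 2 alone.

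The 30 genes, the other lists and the motifs were chosen with earlier results of these data known. Full values are given for the 5 genes with the smallest p-values, those with the highest and lowest log2 fold change, and 7 genes set by name (SREBF1, SREBF2, INSIG1, HMGCS1, SQLE, FASN and SCD). Others are given by role, or named after their values were seen. Gene positions are those of GENCODE version 44 on GRCh37, and symbols and promoters those of RefSeq on GRCh38.p14.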

Additional observations from a re-analysis of the deposited data

How the results depend on the processing

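Under every alternative tried, 0 of the 30 genes passed the threshold, and their median log2 fold change stayed below 0, between -0.34 without sgJUN#1 replicate 1 and -0.12 without NTC replicate 1. The number of genes past the threshold over all genes was 28 (11 higher, 17 lower) and moved to 136 with DESeq2 (66 and 70) and to 148 with no filter (73 and 75). Leaving out 1 library gave between 10 (without NTC replicate 1) and 57 (without NTC replicate 3), with 56 without NTC replicate 2. Of the 12 genes with full values, the sign turned for FASN (0.039 without sgJUN#1 replicate 2; -0.47 to 0.039 over the libraries left out) and for HMGCS1 (0.22 without NTC replicate 1 and 0.048 without sgJUN#1 replicate 2; -0.28 to 0.22). The groups did not overlap for 10 genes, 9 lower (12.8% of all tested genes) and 1 higher (12.2%). When a control was left out this held for between 11 and 18 genes. Without NTC replicate 3 there were 10 lower (18.3% of all tested genes) and 1 higher (18.8%). Without NTC replicate 2 there were 17 lower (19.6%) and 1 higher (18.7%). Fewer controls make a lack of overlap easier to reach, and the shares over all tested genes rose as well. The overlap counts without NTC replicate 1 or NTC replicate 2 and the run without ACAT2 were chosen after seeing the data. The fits that left out each library in turn were planned. The motif counts over the 250 bases before the start differed by at most 1 gene. The cause of the other shifts was not tested.

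The labels number replicates 1 and 2 in both groups. The difference in log2 CPM between replicates 1 and 2 of NTC correlated with that of sgJUN#1 at 0.0146 over the tested genes. On this ground a shared number was not read as a pairing. The deposited column names of same-numbered libraries do carry consecutive numbers, and the labels do not say whether these libraries were handled together. With the replicate number as a block, 103 genes passed over all genes (54 higher, 49 lower), of which 0 of the 30. The median over the 30 was -0.23. Replicate 3 exists in NTC alone, so in this fit it added nothing to the difference between the groups.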
